A study of Mus musculus with 2 samples.

Results

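The BCL2 family genes Bcl2, Bcl2l1, Mcl1, Bax, Bak1, Bid, Bcl2l11, Bmf, Bbc3 and Pmaip1 were followed in sorted mouse bone marrow cells, through every probe set that the platform annotation assigned to one of these genes alone. Of the 10 genes, 9 had a probe set, 30 probe sets in all, out of 18193 genes and 34945 single-gene probe sets on the array. Bax had no probe set in the annotation used and was not analysed here. Total RNA was measured on 2 Affymetrix arrays, 1 from mice with conditional inactivation of TIF1γ, labelled TIF1γ Δ/Δ, and 1 from wild type mice. Both samples were KLS cells, the fraction of bone marrow without lineage markers that carries c-kit and Sca and holds stem and early progenitor cells. The sources used here do not give the Cre line that drives the inactivation, the age of the mice or whether animals were pooled. With 1 array per genotype there was no replicate, so no SD, standard error or p-value between genotypes could be given, and every difference compares these 2 arrays only.

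The BCL2 family decides whether mitochondria release cytochrome c and start the caspase cascade. Survival members (Bcl2, Bcl2l1, Mcl1) hold the pore-forming effectors (Bax, Bak1) in check, and BH3-only members (Bid, Bcl2l11, Bmf, Bbc3, Pmaip1) sense stress and either block the survival members or activate the effectors. In mice, haematopoietic stem cells are known to need Mcl1 to survive, and forced expression of Bcl2 enlarges their pool.

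Values are signal intensities on a linear scale. Each difference is log2 TIF1γ Δ/Δ signal minus log2 wild type signal, centred by taking away the median over probe sets above both floors (-0.024). The floor is the median signal of an array's probe sets, at or above which a probe set was taken as measured, and was 11.7 for TIF1γ Δ/Δ and 14.4 for wild type. A gene was read from its brightest probe set by mean log2 signal. The scatter of probe sets of the same gene around their mean difference was 0.452 (pooled SD on the log2 scale over 4534 genes), which measures disagreement of probe sets and not of mice. Trim33, which encodes TIF1γ, gave 172 on the TIF1γ Δ/Δ array, against 379 on the wild type array (log2 difference -1.12). Where its probe set lies relative to the deleted part is not given, so this is a limited check of the labels.

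Of 20 neutrophil and macrophage markers, 18 were measured on at least 1 array (7 on TIF1γ Δ/Δ, 18 on wild type), and 17 were lower by at least 2-fold, at a median log2 difference of -4.99 with genes under a floor at their bound. Their summed signal was 890.5 on the TIF1γ Δ/Δ array, against 39365 on the wild type array. The sort was for cells without lineage markers, and the high marker signals on the wild type array go against that label. Not every marker did so: Itgam, which encodes the lineage antigen Mac-1, lay under the floor on both arrays (4.07 on TIF1γ Δ/Δ, 8.18 on wild type), as did the T cell genes Cd3e and Cd4, and the neutrophil receptor gene Csf3r was at 0.069. Erythroid markers summed to 3456 on the TIF1γ Δ/Δ array, against 7242 on the wild type array, with 7 of 10 at least 2-fold lower. The largest part of both erythroid sums was Car2, with 2016 on the TIF1γ Δ/Δ array, against 2879 on the wild type array. Its log2 difference was -0.49, and the globin gene Hba-a1 lay under the floor on both arrays. B cell markers summed to 215 on the TIF1γ Δ/Δ array, against 716 on the wild type array, with 3 of 5 at least 2-fold lower. T and NK cell markers summed to 1212 on the TIF1γ Δ/Δ array, against 1648 on the wild type array, with 4 of 8 at least 2-fold lower. Most of that sum was Nkg7, with 1090 on the TIF1γ Δ/Δ array, against 1249 on the wild type array. Of 10 stem and progenitor markers, all measured on both arrays, 2 (Gata2 and Tek) were at least 2-fold higher and none lower, at a median of 0.40. They include Kit, which encodes c-kit, while Ly6a, which encodes Sca-1, had no probe set of its own here. Mature blood cells also express BCL2 family genes, and the part of these cells in the values below was not tested. In a bulk sample, fewer cells of a type and less RNA per cell cannot be told apart.

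Most of the family differed by under 2-fold between the arrays. Only Bcl2, higher on the TIF1γ Δ/Δ array, and Bmf, lower there, reached 2-fold, the size rule used here. Of the other 7 genes with a probe set, 6 were under 2-fold apart, and Pmaip1 had no fold. Over the genes measured on at least 1 array, 8.55% were at least 2-fold apart, 2.53% higher and 6.01% lower. The median difference of the 8 members with a value was 0.0031, against 0.017 over all 11439 genes with a value. These members cover each role unevenly, with 3 survival members, 1 effector and 4 BH3-only members.

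**Figure D1:**
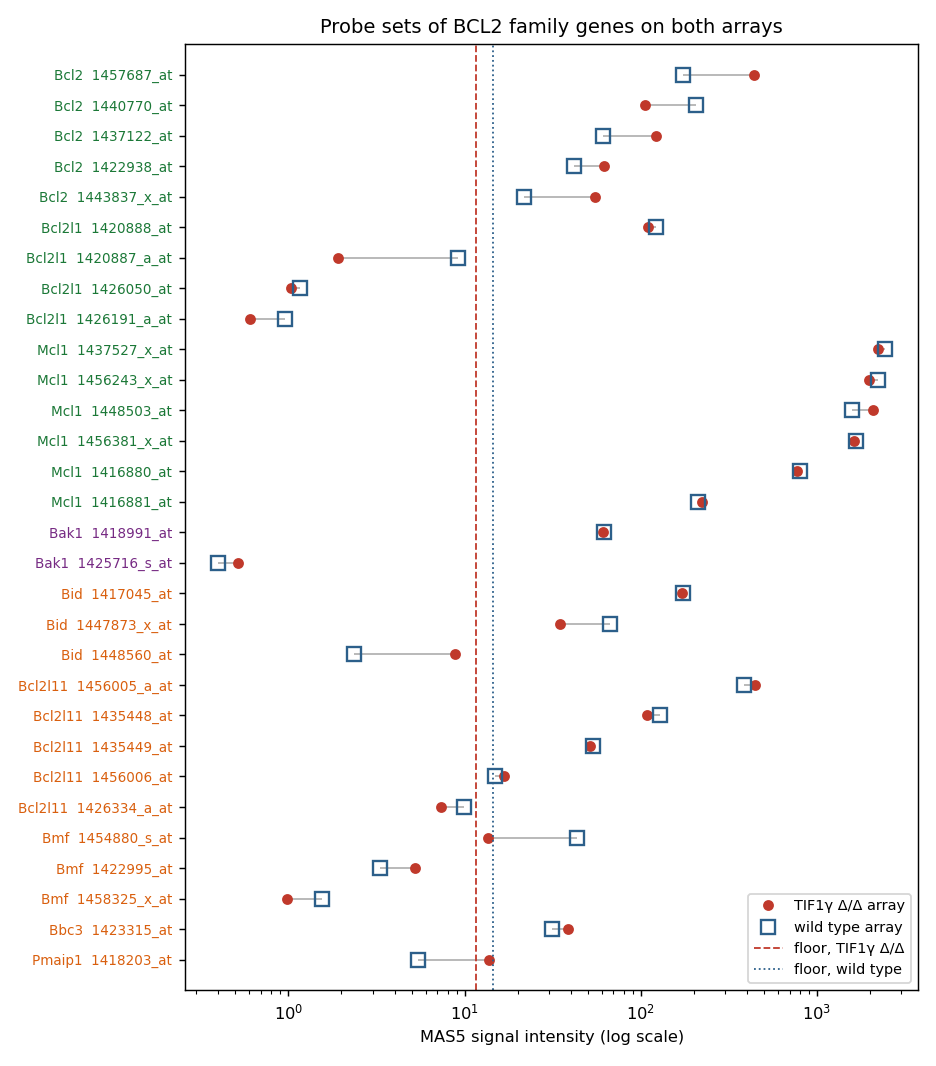
Signal intensity (log axis) of the 30 probe sets of BCL2 family genes on the TIF1γ Δ/Δ array (filled circles) and the wild type array (open squares), with gene names coloured by role (green survival, purple effector, orange BH3-only). Vertical lines mark the floors of 11.7 (TIF1γ Δ/Δ) and 14.4 (wild type). The pairs lie furthest apart, among probe sets over both floors, for Bcl2 1443837_x_at and 1457687_at (higher on the TIF1γ Δ/Δ array) and Bmf 1454880_s_at (lower).

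Among the survival members, Bcl2, which binds BH3-only proteins and effectors on the mitochondrial and endoplasmic reticulum membranes, was the one that stood away from 0. Its probe set 1457687_at gave 441 on the TIF1γ Δ/Δ array, against 175 on the wild type array (log2 difference 1.36, 2.57-fold higher). The other probe sets did not all follow. Probe set 1443837_x_at gave 55.3 on the TIF1γ Δ/Δ array, against 21.8 on the wild type array (log2 difference 1.37). Probe set 1437122_at gave 122 on the TIF1γ Δ/Δ array, against 61.0 on the wild type array (log2 difference 1.03). Both of these were past 2-fold in the same direction as 1457687_at. Probe set 1422938_at, whose annotated accession is a RefSeq transcript, gave 62.0 on the TIF1γ Δ/Δ array, against 42.0 on the wild type array (log2 difference 0.59). Probe set 1440770_at went the other way, with 106 on the TIF1γ Δ/Δ array, against 206 on the wild type array (log2 difference -0.93). In all, 4 of the 5 Bcl2 probe sets had a positive difference and 1 a negative one. With the mean of all 5 in place of the brightest the log2 difference was 0.68, under 2-fold.

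Mcl1, a short-lived survival protein, was close to level. Its 6 probe sets were all measured on both arrays and had log2 differences between -0.13 and 0.43, of which 2 were positive and 4 negative. Probe set 1437527_x_at, which stood for the gene, gave 2213 on the TIF1γ Δ/Δ array, against 2439 on the wild type array (log2 difference -0.12). The highest difference came from 1448503_at, with 2089 on the TIF1γ Δ/Δ array, against 1578 on the wild type array. This is the probe set that stood for Mcl1 when probe sets shared between transcripts were left out, and the value of Mcl1 then was 0.43.

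Bcl2l1 encodes the survival protein Bcl-xL and, by alternative splicing, the shorter pro-death form Bcl-xS. Probe set 1420888_at gave 110 on the TIF1γ Δ/Δ array, against 123 on the wild type array (log2 difference -0.13). The other 3 probe sets lay under the floor on both arrays and have no fold, so the gene rests on a single probe set, and the 2 splice forms were not told apart.

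Of the effectors, only Bak1, a resident of the mitochondrial outer membrane, could be followed. Probe set 1418991_at gave 60.8 on the TIF1γ Δ/Δ array, against 62.1 on the wild type array (log2 difference -0.0057), and the second, 1425716_s_at, lay under the floor on both. Of 10365 genes measured on both arrays, 99.2% were at least as far from 0 as Bak1.

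**Figure D2:**
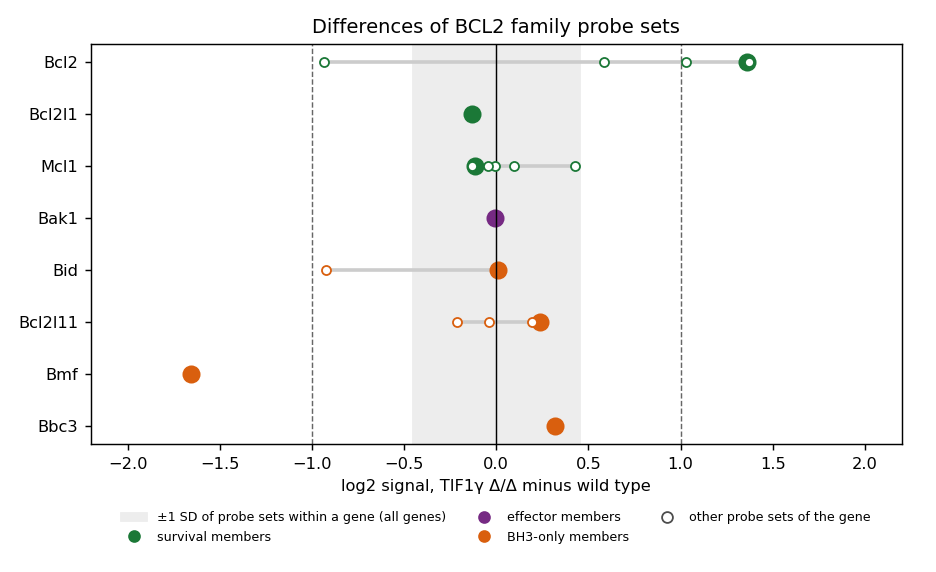
Log2 difference (TIF1γ Δ/Δ minus wild type) of each measured probe set of the 8 BCL2 family genes with a value. Large filled points are the probe set that stood for the gene, small open points the others, the grey band is ±0.452 (1 SD of probe sets within a gene) and dashed lines mark 2-fold; Bcl2 spans -0.93 to 1.37, while Bmf lies at -1.66 from 1 probe set.

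The BH3-only members went in both directions. Bmf, which in healthy cells is tied to the actin-bound myosin motor through dynein light chain and frees itself on loss of attachment, was the lowest of the family. Its probe set 1454880_s_at gave 13.5 on the TIF1γ Δ/Δ array, against 43.3 on the wild type array (log2 difference -1.66, 3.15-fold lower). The value on the TIF1γ Δ/Δ array lay just over the floor of 11.7. The 2-fold call was lost with a pseudocount of 16 (log2 difference -0.99) and with the floor at the 65th percentile (a bound of -0.44), and Bmf had no value without shared probe sets or with the mean of all probe sets. The other Bmf probe sets lay under the floor on both arrays, with 5.21 on the TIF1γ Δ/Δ array, against 3.32 on the wild type array for 1422995_at, the one with a RefSeq accession. So Bmf, too, rests on a single probe set, and one whose suffix marks it as shared between transcripts. Among genes with a geometric mean signal of 0 to 32, the range that holds Bmf, 12% were at least 2-fold lower, against 2.89% at 128 to 512, the range that holds Bcl2, where 3.1% were at least 2-fold higher.

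Bcl2l11 encodes Bim, the BH3-only protein that limits blood cell numbers after cytokine withdrawal in mice. Probe set 1456005_a_at gave 447 on the TIF1γ Δ/Δ array, against 386 on the wild type array (log2 difference 0.24). Probe set 1435448_at gave 109 on the TIF1γ Δ/Δ array, against 128 on the wild type array (log2 difference -0.21). The 4 measured probe sets thus fell on both sides of 0, 2 higher and 2 lower, none by more than 1.18-fold.

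Bid is cut by caspase 8 and carries the death receptor signal to mitochondria. Its probe set 1417045_at gave 172 on the TIF1γ Δ/Δ array, against 174 on the wild type array (log2 difference 0.012). Probe set 1447873_x_at gave 34.7 on the TIF1γ Δ/Δ array, against 67.0 on the wild type array (log2 difference -0.92), so the measured probe sets of Bid were 0.93 apart on the log2 scale. The third, 1448560_at, lay under the floor on both, with 8.77 on the TIF1γ Δ/Δ array, against 2.36 on the wild type array. With the mean of all probe sets Bid was at 0.34.

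Bbc3 encodes Puma and Pmaip1 encodes Noxa, both known targets of p53. The single probe set of Bbc3, 1423315_at, gave 38.5 on the TIF1γ Δ/Δ array, against 31.4 on the wild type array (log2 difference 0.32). The single probe set of Pmaip1, 1418203_at, gave 13.8 on the TIF1γ Δ/Δ array, over its floor, and 5.41 on the wild type array, under its floor. Because the wild type floor of 14.4 was above the signal on the TIF1γ Δ/Δ array, no fold could be given. With the floor at the 40th percentile the bound was a log2 difference of at least 0.69, and with no floor the difference was 1.38.

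Set by role, the log2 differences had a median of -0.12 over the 3 survival members and 0.12 over the 4 BH3-only members with a value, and the gap between these medians was -0.24. Its sign depended on the probe set rule, which also changed the members with a value. The gap was 0.42 without shared probe sets, 0.043 with the mean of all probe sets and 0.16 with their median, a setting added after the data were seen. Bmf had no value under the first 2 of these settings, which left 3 BH3-only members. With the mean, Bcl2l1 had no value either, which left 2 survival members. The members past 2-fold, Bcl2 and Bmf, were each the exception in their role: the other survival members lay at -0.13 and -0.12, and the other BH3-only members with a value between 0.012 and 0.32.

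Against the distribution of all 10365 genes measured on both arrays, which had quartiles of -0.32 and 0.40, Bcl2 stood above 99.4% of genes and Bmf above 1.29%. Bcl2l1 stood above 37.0% of genes and Mcl1 above 38.2%. Bak1 stood above 46.5%, Bid above 47.8%, Bcl2l11 above 64.0% and Bbc3 above 69.7%. The 6 members other than Bcl2 and Bmf thus lay between the quartiles of all genes.

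**Figure D3:**
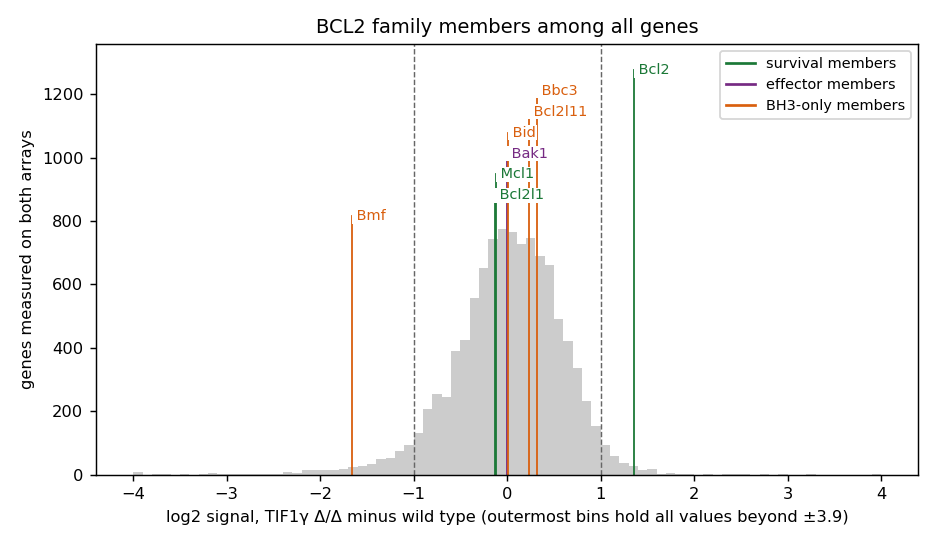
Histogram of log2 differences (TIF1γ Δ/Δ minus wild type) of the 10365 genes measured on both arrays, with a line for each of the 8 BCL2 family members, coloured by role, and dashed lines at 2-fold. Line heights only separate the names. Bcl2 (1.36) and Bmf (-1.66) lie outside the dashed lines and the other 6 inside the quartiles of -0.32 and 0.40.

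Promoter sequences are shown for the members past 2-fold, Bcl2 and Bmf, and for Bcl2l11, a known target of FoxO factors. They are the 250 bases before a RefSeq transcription start in GRCm38.p6, printed 5′ to 3′ on the strand of the gene. Capitals mark 4 searched motifs on either strand, none of which contains another: CAGAC (the Smad-binding box, shown because TIF1γ is known to act in the Smad pathway), GAGGAA (a site of the ETS factor PU.1), CACGTG (an E-box) and TGTTTAC (a FoxO site). Bmf has 3 annotated starts, of which the outermost (5′) and the innermost (3′) are shown. Bcl2l11 has 2, of which only the outermost is shown.
Bcl2, chr1:106714291-106714540, minus strand: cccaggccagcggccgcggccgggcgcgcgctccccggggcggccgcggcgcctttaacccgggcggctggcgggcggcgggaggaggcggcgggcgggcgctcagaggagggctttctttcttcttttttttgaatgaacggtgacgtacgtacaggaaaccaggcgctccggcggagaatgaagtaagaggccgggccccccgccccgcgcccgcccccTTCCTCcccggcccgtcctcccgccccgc
Bmf outermost start, chr2:118549687-118549936, minus strand: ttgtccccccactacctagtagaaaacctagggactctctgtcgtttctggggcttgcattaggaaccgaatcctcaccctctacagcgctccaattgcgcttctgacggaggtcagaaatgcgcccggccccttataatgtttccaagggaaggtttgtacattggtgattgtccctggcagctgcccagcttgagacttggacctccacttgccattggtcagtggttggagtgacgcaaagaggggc
Bmf innermost start, chr2:118544588-118544837, minus strand: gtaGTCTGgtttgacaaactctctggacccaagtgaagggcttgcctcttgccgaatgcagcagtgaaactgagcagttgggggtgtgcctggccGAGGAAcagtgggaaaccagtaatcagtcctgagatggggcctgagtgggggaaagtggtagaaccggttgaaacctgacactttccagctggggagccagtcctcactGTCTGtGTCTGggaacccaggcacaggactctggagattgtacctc
Bcl2l11 outermost start, chr2:128125788-128126037, plus strand: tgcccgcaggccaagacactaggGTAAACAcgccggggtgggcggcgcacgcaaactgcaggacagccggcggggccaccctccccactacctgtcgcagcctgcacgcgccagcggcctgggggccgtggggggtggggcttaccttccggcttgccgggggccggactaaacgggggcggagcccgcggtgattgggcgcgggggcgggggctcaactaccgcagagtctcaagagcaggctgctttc

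The Bcl2 window was 74.8% G and C and held 1 GAGGAA, as its reverse complement TTCCTC, and no CAGAC. The outermost Bmf window was 54% G and C and held none of the 4 motifs, whereas the innermost held 3 copies of CAGAC, all as GTCTG, and 1 GAGGAA. The outermost Bcl2l11 window held 1 FoxO site, as GTAAACA, whereas the window of its other start held 1 CAGAC and no FoxO site. The other member window with a FoxO site belonged to Bbc3. The chromosome that carries Pmaip1 was left out of the promoter search. Of the 32851 promoter windows of this length on the other chromosomes, 42.2% held CAGAC, 23.3% GAGGAA, 6.02% CACGTG and 3.17% TGTTTAC. Their median G and C content was 52.4%. Of the 16 windows of the 9 members other than Pmaip1, some of which overlap, 6 held CAGAC, 4 GAGGAA, 2 CACGTG and 2 TGTTTAC. These matches describe letters only, and no binding was measured.

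Other genes of the pathway are described from lists of genes by function. In the list of 16 other BCL2 family genes, 7 had a value, 1 was at least 2-fold lower and none higher, at a median of 0.42. The lower gene, Bcl2l14, gave 11.7 on the TIF1γ Δ/Δ array, at the floor, and 24.5 on the wild type array (log2 difference -1.04), and its probe sets differed in direction. Of the others, named after their values were seen, the survival gene Bcl2l2 had a log2 difference of 0.61, the effector relative Bok one of 0.66, and the BH3-only gene Bad one of -0.76, with both of its probe sets lower. Probe sets of the Bcl2a1 survival genes are annotated to several paralogs at once and were not used.

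Downstream of the mitochondrion, 1 of 13 genes for the apoptosome, caspases and their inhibitors was at least 2-fold higher and none lower, at a median of 0.050. It was Casp9, the initiator caspase of the apoptosome, with 66.7 on the TIF1γ Δ/Δ array, against 29.6 on the wild type array (log2 difference 1.20, 1 probe set). The other 12 lay between -0.88 (the nuclease gene Endog, both probe sets lower) and 0.73 (the apoptosome scaffold Apaf1, 1 probe set), both named after their values were seen. In the death receptor arm upstream of Bid, none of 6 values reached 2-fold, at a median of 0.11 with Fas at its bound. The receptor gene Fas had a TIF1γ Δ/Δ signal of 1.49, too low to count as measured, and a wild type signal of 20.1. Its log2 difference was therefore known only to be -0.76 or lower, which cannot tell whether Fas was 2-fold lower. Caspase 8, which cuts Bid, gave 485 on the TIF1γ Δ/Δ array, against 366 on the wild type array (log2 difference 0.43), and the receptor Tnfrsf1a was at 0.52.

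Among 16 binding partners and turnover factors of BCL2 proteins, 1 was at least 2-fold higher and none lower, at a median of -0.011. This was the kinase gene Gsk3b, whose product marks MCL1 protein for degradation, with 236 on the TIF1γ Δ/Δ array, against 102 on the wild type array (log2 difference 1.23), although only 3 of its 6 measured probe sets were higher. Dynll2, the light chain that binds Bmf, was named after its value was seen and was at 0.69, with 1 of 2 probe sets higher. Of 8 transcriptional regulators of BH3-only genes, 1 was at least 2-fold lower and none higher, at a median of -0.24. It was Ddit3, the stress factor CHOP, known to induce Bcl2l11, with 72.1 on the TIF1γ Δ/Δ array, against 155 on the wild type array (log2 difference -1.09, both probe sets lower). None of 9 genes for cytokine survival signalling was 2-fold apart, at a median of 0.16, with Pim1 at 0.059 and Kit at 0.39. They lay between -0.51 (Il3ra, 1 probe set) and 0.93 (Akt1, 2 of 3 probe sets higher), both named after their values were seen.

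**Figure D4:**
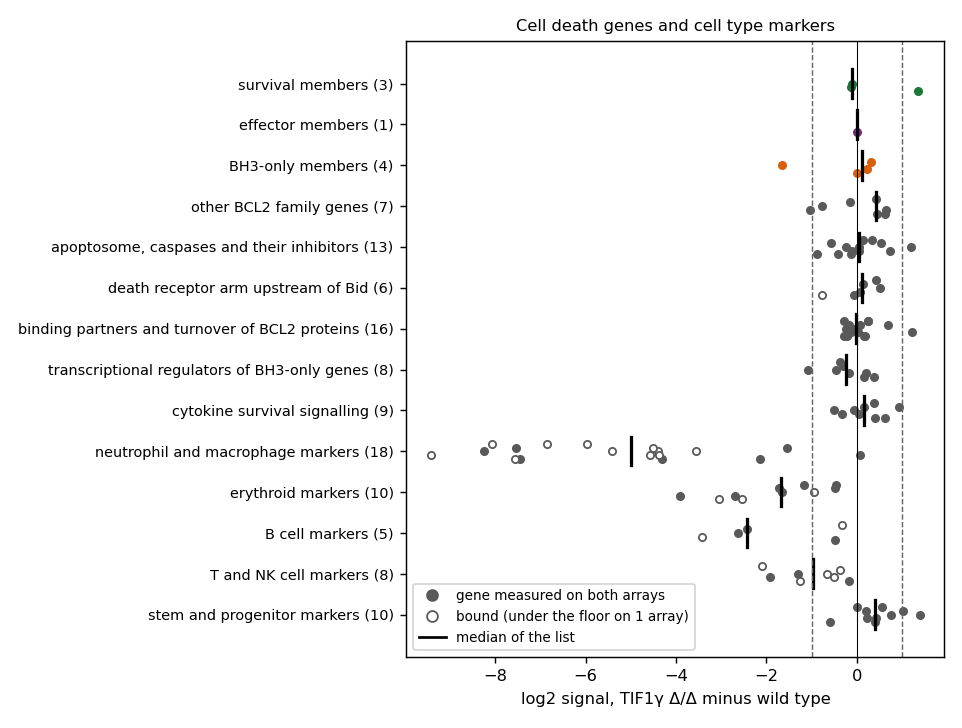
Log2 difference (TIF1γ Δ/Δ minus wild type) of each gene in the BCL2 family roles, in further cell death lists and in cell type marker lists, with the number of genes with a value in parentheses. Filled points were measured on both arrays, open points are bounds, black bars are list medians and dashed lines mark 2-fold. The cell death lists have medians between -0.24 and 0.42, and the neutrophil and macrophage markers a median of -4.99.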

How the data were processed

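Per the submitters' processing notes, the authors used MAS5, and the deposited values are linear signal intensities, 1 per probe set. The sources used here name no MAS5 version. Each array had a mean of 100 after trimming 2% at each end of its 45101 values, so the deposited intensities were already scaled. MAS5 subtracts mismatch signal, which makes low values noisy. From these, 64 control probe sets were left out, symbols were updated by Entrez identifier to RefSeq GRCm38.p6 (34741 of 34945 single-gene probe sets matched), and 932 probe sets with several genes were not named. Differences were log2 values with a floor at the 50th percentile, as the report describes. A gene under the floor on 1 array got a bound, and no fold where the bound pointed the other way. Named genes were all members and, of each further list, up to 4 members at least 2-fold apart or else the 2 brightest. Further genes of these lists, marked in the text, were named after their values were seen, and Fas because its value is a bound. Marker lists are given mainly as counts. The members and lists were chosen with earlier results of these data known. The count of genes past 2-fold is a rule of size, with no test. The procedure was run on simulated data with differences planted only in genes well above the wild type floor. That run therefore did not test calls near the floor, such as that of Bmf. Promoter sequences came from RefSeq (GRCm38.p6), with the chromosome that carries Pmaip1 left out. Alternatives covered scaling, floor, probe set rule, a pseudocount of 16 and the fold threshold. Python 3.11.15 was used with pandas 2.3.3, statsmodels 0.14.6, numpy 2.4.6 and, for plots, matplotlib 3.10.9.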

Additional observations from a re-analysis of the deposited data

How the results depend on the processing

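Of 163 values recomputed under 11 planned settings and 1 chosen after seeing the data (the median of a gene's probe sets), 138 stayed within the probe set scatter and on their side of 2-fold, or within 1.5 times for counts. Many of these could hardly move. The floor settings left Bcl2, Bcl2l1, Mcl1, Bak1, Bid and Bcl2l11 at their main values, and the centring value was only -0.024. The 138 are thus not independent checks. No value past 2-fold changed sign. Values under 2-fold could change sign and still count among the 138. The sign was kept in 6 of 10 settings for Bid and in 8 of 10 for Mcl1 and for Bcl2l11. For the gap between survival and BH3-only medians it was kept in 7 of 10. Bcl2 was at 0.68 with the mean of all probe sets, under which no member was 2-fold higher or lower (0 each). The survival median there, over Bcl2 and Mcl1 alone, was 0.36. Bcl2l1 and Bak1 had no value under that setting, and values lost in this way are not among the 163. Bmf was at -0.99 with a pseudocount and at -0.44, as a bound, under the 65th percentile floor, and had no value without shared probe sets or with the mean of all probe sets; under these 4 settings 0 members were 2-fold lower. Without shared probe sets Mcl1 and the survival median were at 0.43, and the gap between survival and BH3-only medians was 0.42. Bid was at -0.46 with the median of probe sets. Pmaip1, with no fold in the report and not among these values, was at 0.24 with quantile and 0.25 with loess scaling and 0.69 under the 40th percentile floor, all bounds, and at 1.38 with no floor, where 2 members were 2-fold higher, and 0.50 with a pseudocount. At 3-fold 0 members were higher. All genes past the threshold, higher and lower, numbered 1762 and 3043 with no floor, 169 and 431 with a pseudocount, 1579 and 1791 at 1.5-fold, and 26 and 266 at 3-fold, against 297 and 705. With the floor at the 65th percentile 364 were lower, and with the median of probe sets 193 were higher. Where no construction is named, the cause was not tested. No paired analysis was possible because each genotype had 1 array.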

Other observations

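Probe sets of Bcl2 disagreed more than those of most genes with as many. Its 5 measured probe sets spanned 2.30 on the log2 scale, and of 153 genes with 5 probe sets measured on both arrays, 5.88% spanned at least as much, at a median span of 1.04. For Bid, with 2 measured probe sets 0.93 apart, 12.1% of 2753 such genes spanned at least as much. Mcl1 (0.56 over 6 probe sets) and Bcl2l11 (0.45 over 4) spanned less than the medians of 1.07 and 0.79 for genes with as many. Which transcripts of Bcl2 the lower probe set 1440770_at and the higher probe sets read was not analysed here.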
